A study of Mus musculus with 6 samples.

Results

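The genes of the pentose phosphate pathway were examined in wound tissues of diabetic mice, as 8 of the 33184 genes in a table of FPKM, a level that divides the fragments of a gene by its length and by the size of the library. The members were G6pdx, H6pd, Pgls and Pgd of the oxidative branch and Rpia, Rpe, Tkt and Taldo1 of the non-oxidative branch, matched from Ensembl IDs to mouse symbols. All 8 were found, and all 8 were among the 16005 genes kept, whose mean over the 6 libraries reached 0.5 FPKM. They were selected on their FPKM in these 6 libraries, as a pathway whose branches were to be set against each other, so their values and the gap between the branches are a description and were given no test.

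The pentose phosphate pathway leaves glycolysis at glucose 6-phosphate. Its oxidative branch reduces NADP+ to NADPH, the electron donor of fatty acid and sterol synthesis, of glutathione recycling and of the NADPH oxidase, and yields ribulose 5-phosphate. Its non-oxidative branch interconverts pentose phosphates with glycolytic intermediates in both directions and supplies ribose 5-phosphate for nucleotides. In skin, lipid-making cells such as sebocytes and adipocytes, and phagocytes recruited to a wound, are known users of NADPH.

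All 6 libraries came from db/db mice, a line that becomes obese and diabetic for want of a working leptin receptor, each given a round 6 mm wound of the skin. Control siRNA (NC, 3 libraries) or siRNA against Sfrp2 (SFRP2-siRNA, 3 libraries) was injected around the wound 1 day after injury, and the wound was collected at 4 days, although the sample titles carry day 3. Sex and age were not given in the sources used here, and each library was taken as 1 animal, which no label states, so the spread between libraries may be partly technical. The treated samples are titled siRNA-1 to siRNA-3, as are the 3 Sfrp2 sequences of the study, and whether each library received another sequence is not stated, so a difference between sequences cannot be told apart from one between animals.

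The transcript of the siRNA target ran against the labels, and its protein was not analysed here. Sfrp2, a secreted modulator of Wnt signalling, had 11.6, 40.6 and 14.1 FPKM in NC libraries 1, 2 and 3 and 50.6, 54.6 and 55.2 FPKM in those labelled SFRP2-siRNA 1, 2 and 3. It was higher in every library labelled SFRP2-siRNA than in any NC library, by 1.45 (SE 0.43) on the log2(FPKM + 1) scale, with an adjusted p of 0.518 in limma's test. Directions below are therefore given for the libraries as labelled. The library labelled SFRP2-siRNA 1 stood apart, with Pearson correlations of 0.889 to 0.930 with the others against 0.951 to 0.976 among the other pairs, and its summed hair follicle markers were 26.8 FPKM against 2460 to 5020 FPKM in the other libraries. Totals of 42.9 M to 47.1 M reads (M, mega) were recovered from the values, and the member with the fewest reads, Rpia, had 826 to 1082 of them. In bulk tissue, fewer cells of a type and less RNA per cell cannot be told apart.

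To show the regulatory sequence next to which these genes are read, promoter windows of 300 bases (250 before to 50 after the start of the gene) were taken from RefSeq on GRCm38.p6, which held all 8 genes and a pair of starts for Pgd. The 4 windows printed belong to the members with the lowest log2 differences, and capitals mark the letters searched on both strands: the GC box GGGCGG, the box named CCAAT, the E-box CACGTG, the antioxidant response element TGACNNNGC and the sterol element TCACNCCAC. They lie at chrX:74428831-74429130 (minus strand) for G6pdx, chr4:149166656-149166955 (minus strand) for Pgd, chr14:30548881-30549180 (plus strand) for Tkt and chr7:141391910-141392209 (plus strand) for Taldo1, each written 5′ to 3′ along the gene.
G6pdx: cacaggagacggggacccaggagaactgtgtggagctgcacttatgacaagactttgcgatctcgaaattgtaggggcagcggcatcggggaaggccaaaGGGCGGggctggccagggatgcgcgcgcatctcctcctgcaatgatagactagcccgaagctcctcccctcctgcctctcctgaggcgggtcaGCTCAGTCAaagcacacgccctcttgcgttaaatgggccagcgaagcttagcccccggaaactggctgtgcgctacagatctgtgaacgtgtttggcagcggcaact
Pgd: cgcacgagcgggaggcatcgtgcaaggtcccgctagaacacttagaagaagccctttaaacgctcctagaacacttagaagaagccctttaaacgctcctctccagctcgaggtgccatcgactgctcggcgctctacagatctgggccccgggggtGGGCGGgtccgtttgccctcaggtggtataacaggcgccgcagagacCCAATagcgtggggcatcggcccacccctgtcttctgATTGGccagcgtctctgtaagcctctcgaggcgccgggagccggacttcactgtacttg
Tkt: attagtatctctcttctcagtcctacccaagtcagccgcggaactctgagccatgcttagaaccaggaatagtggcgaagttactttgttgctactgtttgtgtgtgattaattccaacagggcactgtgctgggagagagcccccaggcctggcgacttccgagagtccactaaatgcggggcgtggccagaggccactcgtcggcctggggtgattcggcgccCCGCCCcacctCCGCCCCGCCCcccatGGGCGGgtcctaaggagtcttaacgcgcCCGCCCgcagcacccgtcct
Taldo1: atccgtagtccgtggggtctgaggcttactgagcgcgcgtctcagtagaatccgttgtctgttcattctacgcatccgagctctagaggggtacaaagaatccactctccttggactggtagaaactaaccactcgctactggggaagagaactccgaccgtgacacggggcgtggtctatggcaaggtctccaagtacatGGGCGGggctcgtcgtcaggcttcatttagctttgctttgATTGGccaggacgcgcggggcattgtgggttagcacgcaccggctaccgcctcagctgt

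The GC box, the letters that factors of the Sp family bind, was in the windows of 7 of the 8 genes, all but H6pd, against 35.7% of all 32851 promoters of the same length. The Tkt window held 5 copies, some sharing letters, where G6pdx, Pgd and Taldo1 held 1 each. CCAAT was in 4 of the 8 (H6pd, Pgd, Rpe and Taldo1), against 37.4% of all promoters. The antioxidant response element, the letters bound by Nrf2 with its small Maf partners, was in the G6pdx window and in the window of the other Pgd start at chr4:149166033-149166332, against 12.4% of all promoters. In that Pgd window the letters lay after the start, not before it, and the Pgd window printed above did not hold them. The E-box, the sterol element and TATAAA were in none of the 8, and they were in 7.15%, 1.24% and 13.6% of all promoters. The share of G and C was 39.3% in H6pd and 51.3% to 67.3% in the other windows, against a median of 52.7%. A gene was counted when any of its windows held the letters, whereas the shares of all promoters count windows. The other Pgd window held no GC box and no CCAAT. These matches describe letters in a window and show no binding.

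In NC wounds Tkt and Taldo1, the enzymes that move carbon units between sugars, had the highest levels. Tkt had the highest mean level (195.9 FPKM), followed by Taldo1 (147.8), G6pdx (78.8), Pgd (55.6), H6pd (26.9), Pgls (23.3), Rpe (11.6) and Rpia (3.68 FPKM). Neighbours in that order overlapped between their 3 libraries for Tkt and Taldo1 and for H6pd and Pgls. In the libraries labelled SFRP2-siRNA, Taldo1 stood first with Tkt next, and Tkt overlapped with G6pdx below it, as did Pgd with H6pd and H6pd with Pgls. FPKM is a level per gene length, so these levels can be set side by side.

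In the oxidative branch, G6pdx and Pgd, the NADPH-forming enzymes of the cytosol, had lower levels in every library labelled SFRP2-siRNA than in any NC library, whereas Pgls and H6pd overlapped. G6pdx encodes the glucose 6-phosphate dehydrogenase of the cytosol, which sets the pace of the pathway. It had 90.5, 68.8 and 77.1 FPKM in the NC libraries and 58.3, 59.2 and 53.3 FPKM in those labelled SFRP2-siRNA. Every value of the latter lay below every NC value, with means of 78.8 ± 10.95 and 56.95 ± 3.21 FPKM (SD, n = 3 each). The fitted log2 difference was −0.45 (SE 0.16), and −0.58 relative to the median of all genes tested, which was 0.125 above 0. This relative value is given for each member, since other scalings moved that median to between 0.005 and 0.196. Without NC 1 the relative difference of G6pdx was −0.42.

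Pgls encodes the lactonase that hydrolyses the product of G6pdx. It had 28.8, 19.5 and 21.6 FPKM in the NC libraries and 19.75, 19.5 and 23.7 FPKM in those labelled SFRP2-siRNA, so the groups overlapped and only NC 1 stood above the rest. Its log2 difference was −0.13 (SE 0.18), or −0.26 in relative terms. Without NC 1 the relative difference was −0.04.

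Pgd encodes 6-phosphogluconate dehydrogenase, the other NADPH-forming step of the cytosol. It had 58.8, 56.8 and 51.0 FPKM in the NC libraries and 46.5, 40.7 and 33.7 FPKM in those labelled SFRP2-siRNA. The groups did not overlap, with means of 55.6 ± 4.04 and 40.3 ± 6.41 FPKM (SD, n = 3 each) and a log2 difference of −0.46 (SE 0.17), or −0.59 in relative terms. Pgd and G6pdx stood at nearly the same fraction of their NC means, 72.5% and 72.3%. The ratio of Pgd to G6pdx was 0.650 to 0.826 in the NC libraries and 0.632 to 0.797 in those labelled SFRP2-siRNA, and these ranges overlapped.

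H6pd works in the endoplasmic reticulum, where it feeds NADPH to the enzyme that activates glucocorticoids, and it carries both the dehydrogenase and the lactonase activity. It had 24.7, 31.9 and 24.2 FPKM in the NC libraries and 38.6, 22.7 and 18.4 FPKM in those labelled SFRP2-siRNA. The library labelled SFRP2-siRNA 1 held the highest value of all 6 and SFRP2-siRNA 3 the lowest, so the means of 26.9 ± 4.30 and 26.6 ± 10.6 FPKM (SD, n = 3 each) hid an uneven group. The relative log2 difference was −0.20, with −0.51 and no overlap of the groups without SFRP2-siRNA 1, and 0.04 without SFRP2-siRNA 3.

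**Figure D1:**
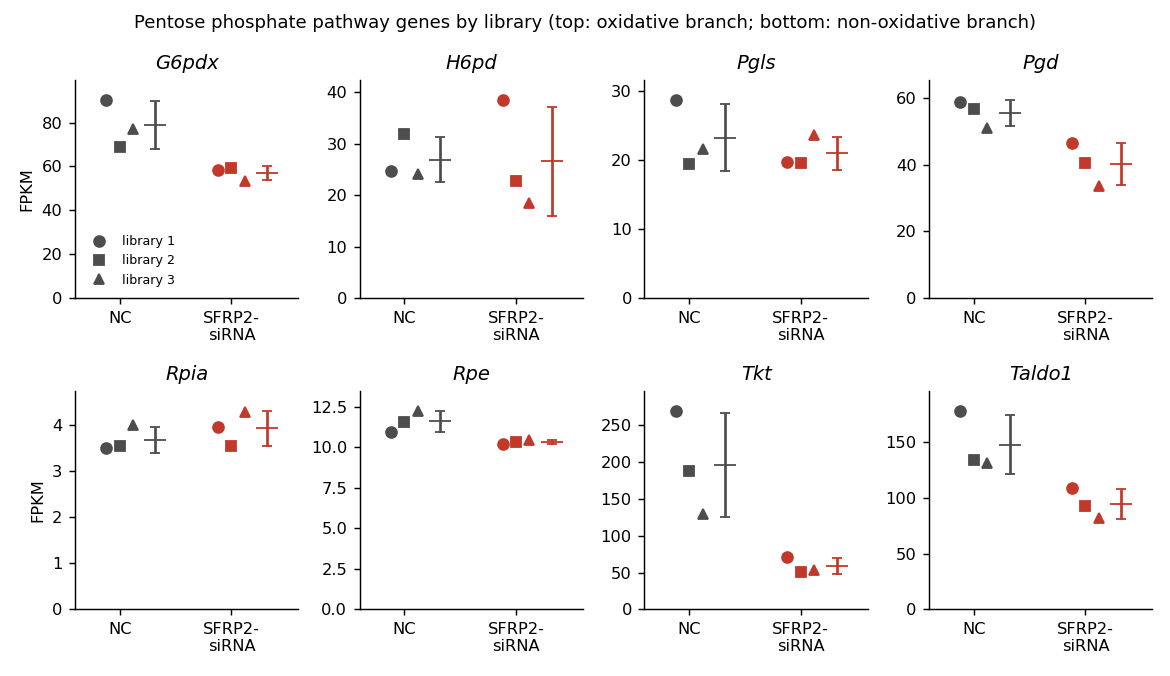
Level of each gene in FPKM (vertical axes from 0) in the 3 NC and the 3 SFRP2-siRNA libraries. Symbols are libraries 1, 2 and 3 and bars show the mean with its SD. The NC and SFRP2-siRNA symbols do not overlap for G6pdx, Pgd, Rpe, Tkt and Taldo1, and they overlap for H6pd, Pgls and Rpia.

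In the non-oxidative branch, Tkt and Taldo1 had lower levels in every library labelled SFRP2-siRNA than in any NC library, by more than Rpia and Rpe, the isomerase and the epimerase, differed. Rpia encodes the isomerase that makes ribose 5-phosphate, and it had the lowest level of the 8. Its values were 3.49, 3.53 and 3.999 FPKM in the NC libraries and 3.95, 3.53 and 4.29 FPKM in those labelled SFRP2-siRNA. The groups overlapped, and the plain difference of 0.07 (SE 0.12) and the relative difference of −0.05 on the log2 scale took opposite signs.

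Rpe encodes the epimerase that makes xylulose 5-phosphate, a donor substrate of transketolase. It had 11.0, 11.6 and 12.2 FPKM in the NC libraries and 10.2, 10.3 and 10.5 FPKM in those labelled SFRP2-siRNA. The groups did not overlap, but the gap between them was narrow, and the fitted log2 difference was −0.15 (SE 0.11), or −0.28 in relative terms. When every library was scaled to the same summed FPKM, Rpe overlapped and 4 members rather than 5 had groups that did not overlap.

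Tkt encodes transketolase, the thiamine-dependent enzyme that moves carbon units between sugar phosphates. It had 269.5, 188.5 and 129.7 FPKM in the NC libraries and 71.2, 51.0 and 53.7 FPKM in those labelled SFRP2-siRNA, with means of 195.9 ± 70.2 and 58.6 ± 11.0 FPKM (SD, n = 3 each). The lowest NC library thus stood well above the highest library labelled SFRP2-siRNA, while the NC libraries differed among themselves more than those of the other group. The mean was 29.9% of the NC mean and the log2 difference was −1.68 (SE 0.29), or −1.80 in relative terms. This placed Tkt at the 0.2 percentile of the log2 differences of all genes tested. Leaving out NC 1 gave a relative difference of −1.48, and leaving out NC 3 gave −2.12.

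Taldo1 encodes transaldolase, which works beside transketolase on the same sugar phosphates. It had 178.2, 134.1 and 131.1 FPKM in the NC libraries and 108.7, 93.0 and 81.75 FPKM in those labelled SFRP2-siRNA. The groups did not overlap, with means of 147.8 ± 26.3 and 94.5 ± 13.6 FPKM (SD, n = 3 each), and the log2 difference was −0.64 (SE 0.20), or −0.76 in relative terms. The ratio of Tkt to Taldo1 was 1.51, 1.41 and 0.989 in the NC libraries and 0.655, 0.548 and 0.657 in those labelled SFRP2-siRNA, so Tkt was lower also when set against its partner enzyme.

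Counted together, 5 of the 8 genes had groups that did not overlap, 2 of 4 in the oxidative and 3 of 4 in the non-oxidative branch, and all 5 were lower in the libraries labelled SFRP2-siRNA. Among all 16005 genes, 3.92% had groups that did not overlap with lower values and 13.9% with higher values. Since the members were selected with these values known, nothing is read from their count beside that background. No member and no other gene had an adjusted p under 0.05 with an absolute log2 difference above 1 (0.0% of the genes tested). Without the library labelled SFRP2-siRNA 1, H6pd joined the genes whose groups did not overlap and the count was 6 of 8, beside 7.97% of all genes lower in that comparison. Under median-of-ratios scaling the count stayed 5, beside 7.67% of all genes, and the split of all genes that did not overlap moved from 78.0% higher to 41.9% higher.

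**Figure D2:**
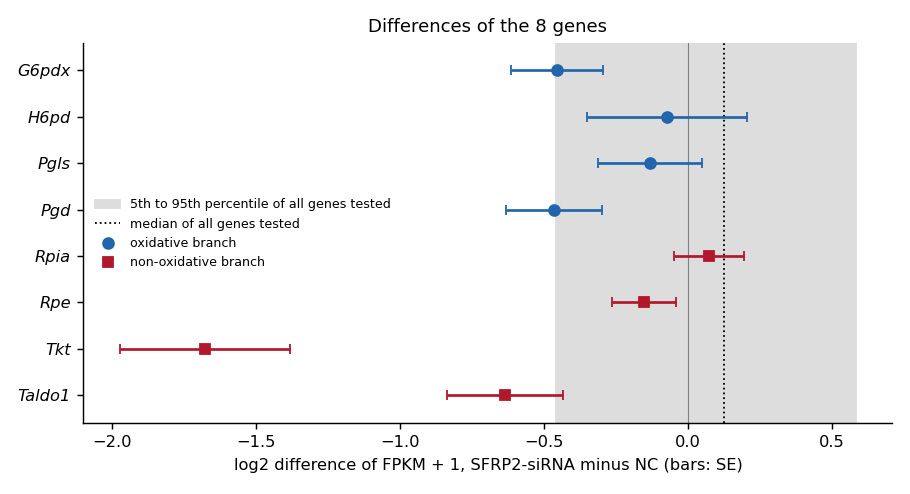
Fitted log2 difference of FPKM + 1, SFRP2-siRNA minus NC, for each gene with its SE (horizontal axis), circles for the oxidative and squares for the non-oxidative branch. The grey band spans the 5th to 95th percentile of all genes tested (−0.46 to 0.58) and the dotted line is their median, 0.125. Tkt at −1.68 and Taldo1 at −0.64 lie below the band, and Pgd at −0.46 and G6pdx at −0.45 lie at its lower edge.

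Within a library, the branches were compared as the mean of log2(FPKM + 1) over the 4 genes of each. The oxidative mean was 5.499, 5.344 and 5.285 in the NC libraries and 5.285, 5.055 and 4.946 in those labelled SFRP2-siRNA, with NC 3 and SFRP2-siRNA 1 alike. The non-oxidative mean was 5.33, 5.12 and 5.03 in the NC libraries and 4.69, 4.48 and 4.52 in those labelled SFRP2-siRNA, and did not overlap. The oxidative minus the non-oxidative mean was 0.17, 0.23 and 0.25 in the NC libraries and 0.60, 0.57 and 0.43 in those labelled SFRP2-siRNA.

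The gap between the branches was therefore wider in every library labelled SFRP2-siRNA than in any NC library, by 0.32 on the log2 scale and by 0.28 to 0.37 over the alternatives. The widening rested on Tkt. With Tkt left out, a choice made after the values were seen, the gap was 1.09, 1.04 and 0.92 in the NC libraries and 1.096, 0.98 and 0.85 in those labelled SFRP2-siRNA, and the groups overlapped with a difference of −0.04. The non-oxidative mean without Tkt was still lower, 4.30 to 4.41 in the NC libraries and 4.08 to 4.19 in the other group. The mean over Rpia and Rpe was 2.94 and 2.90 and the groups overlapped, whereas that over Tkt and Taldo1 was 7.38 and 6.22 and they did not.

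**Figure D3:**
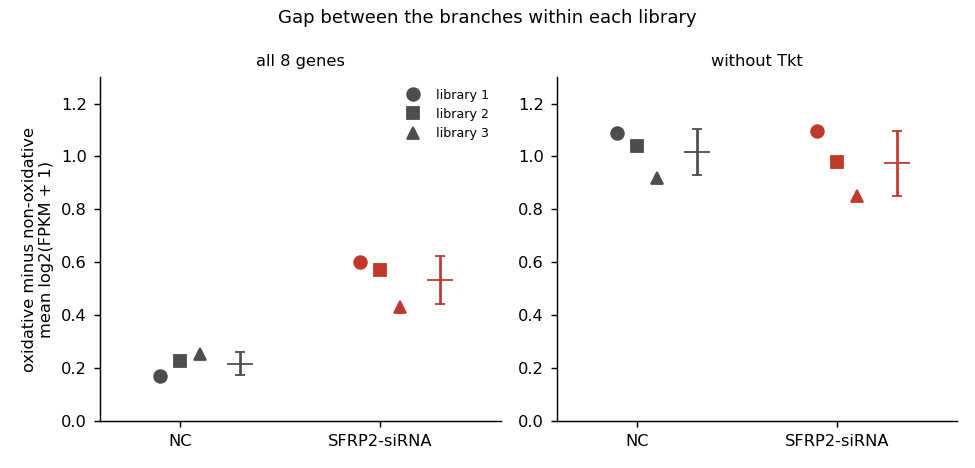
Oxidative minus non-oxidative mean log2(FPKM + 1) in each library (vertical axis), for all 8 genes (left) and without Tkt (right), with symbols for libraries 1, 2 and 3 and bars for the mean with its SD. With all 8 genes the NC libraries sit between 0.17 and 0.25 and the SFRP2-siRNA libraries between 0.43 and 0.60, and without Tkt the groups overlap.

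Tkt also held a smaller part of the transcripts of the pathway in the libraries labelled SFRP2-siRNA. The 8 genes summed to 664.9, 514.6 and 451.0 FPKM in the NC libraries and to between 279.2 and 357.2 FPKM in those labelled SFRP2-siRNA. Tkt held 40.5%, 36.6% and 28.8% of that sum in the NC libraries and 19.9%, 17.0% and 19.2% in the other group. Each other member had a larger mean share there, and since shares sum to a whole, a smaller share of Tkt makes the others larger in sum. The ratio of Tkt to G6pdx was 2.98, 2.74 and 1.68 in the NC libraries and 1.22, 0.861 and 1.01 in those labelled SFRP2-siRNA. The ratio of G6pdx to Pgls, the step after it, was 3.14 to 3.58 in the NC libraries and 2.25 to 3.03 in those labelled SFRP2-siRNA and also did not overlap. The ratios of Pgd to Pgls (2.04 to 2.91 and 1.42 to 2.35), of Taldo1 to G6pdx (1.70 to 1.97 and 1.53 to 1.86) and of G6pdx to H6pd (2.16 to 3.67 and 1.51 to 2.89) overlapped between the groups.

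**Figure D4:**
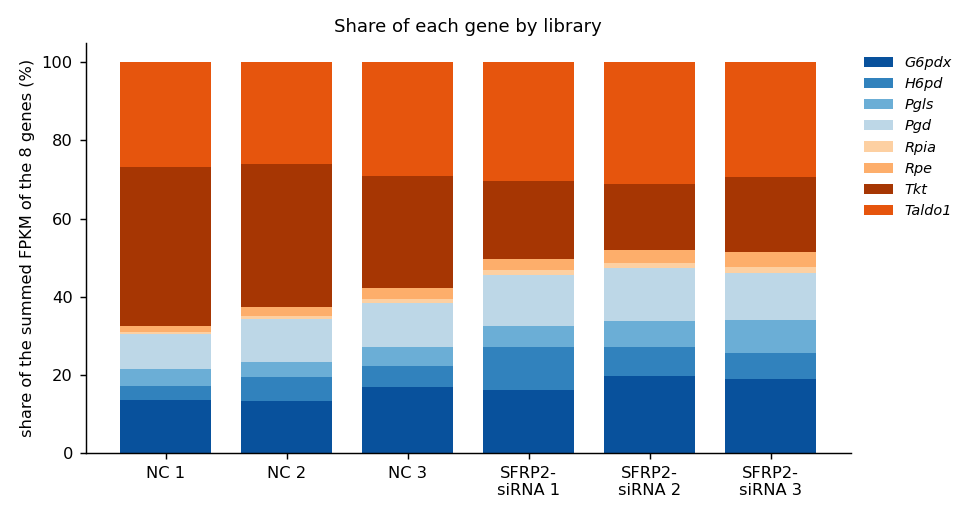
Share of each gene in the summed FPKM of the 8 genes (vertical axis, %), 1 bar per library, with blue for the oxidative and orange to brown for the non-oxidative branch. Tkt takes 28.8% to 40.5% in the NC libraries and 17.0% to 19.9% in the SFRP2-siRNA libraries.

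The members were also compared from library to library. Over the 6 libraries, Pearson correlations of log2(FPKM + 1) among Tkt, Taldo1, G6pdx and Pgd ran from 0.85 for G6pdx with Pgd to 0.96 for Tkt with Taldo1. After the group means were removed they ran from 0.42 for G6pdx with Pgd to 0.85 for Tkt with Taldo1, so part of the pooled value is the difference between the groups. Rpe, whose groups did not overlap either, went the other way within the groups, at −0.95 with Tkt, −0.81 with Taldo1, −0.61 with Pgd and −0.58 with G6pdx. Rpia correlated with G6pdx at −0.52 over the 6 libraries. These 6 points share group, depth and tissue make-up, and the correlations are descriptions.

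The genes most like Tkt over the 6 libraries were Sdha (r = 0.996), a subunit of succinate dehydrogenase, Eci1 (0.996), an isomerase of fatty acid oxidation, 9130214F15Rik (0.996), Slc25a1 (0.996), the mitochondrial citrate carrier, and Kng2 (0.995). The genes most like G6pdx were Nudt18 (0.985), Grpel1 (0.981), a co-chaperone of mitochondrial protein import, Polr1d (0.980), a subunit shared by RNA polymerases I and III, Hdhd3 (0.978) and Tmem120b (0.974). Of 16004 genes compared, 349 had r above 0.9 with Tkt and 192 with G6pdx.

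The related copies of the pathway enzymes were barely detected in either group. G6pd2, Tktl1 and Tktl2, the retrogene and transketolase-like relatives, had at most 2, 11 and 2 reads in any library, and Rgn, a further lactonase, at most 30, so all 4 were below 0.5 FPKM and were not tested. The gene copies resemble G6pdx and Tkt in sequence, and how the counting treated shared reads was not given in the sources used here. Of the 14 genes on copies and on the entry or exit of pentoses, 9 were tested, and 0 were higher and 0 lower at an unadjusted p under 0.05 in limma's test, beside 6.72% of all genes higher and 2.86% lower. Their median difference was 0.08 on the log2 scale, or −0.05 in relative terms and 0.05 with no filter on low values. Prps1, which activates ribose 5-phosphate for nucleotide synthesis, had 12.5, 16.1 and 15.1 FPKM in the NC libraries and 24.8, 20.6 and 14.6 FPKM in those labelled SFRP2-siRNA, so the groups overlapped. Prps2 had means of 6.42 ± 1.598 and 7.16 ± 1.70 FPKM, Rbks, the ribokinase, 2.65 ± 0.495 and 2.57 ± 0.691 FPKM, and Shpk, the sedoheptulose kinase, 4.05 ± 0.538 and 3.19 ± 0.286 FPKM (NC first, SD, n = 3 each).

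NADPH is also made outside the pathway, and in a list of genes around that supply Me1 had the lowest log2 difference. Me1, the malic enzyme of the cytosol, had 134.3, 135.3 and 105.3 FPKM in the NC libraries and 56.1, 43.2 and 45.4 FPKM in those labelled SFRP2-siRNA, a log2 difference of −1.36 (SE 0.18). The groups were far apart, yet the adjusted p in limma's test was 0.518. Idh1, the cytosolic isocitrate dehydrogenase, had means of 73.1 ± 3.63 and 71.6 ± 8.34 FPKM (SD, n = 3 each). Mthfd2 and Mthfd1l, folate enzymes of the mitochondrion, had 4.22 ± 0.654 and 2.66 ± 0.110 FPKM in the NC libraries and 6.03 ± 0.615 and 3.52 ± 0.353 FPKM in those labelled SFRP2-siRNA (SD, n = 3 each). Of 13 genes of this list tested, 4 were higher and 1 lower at an unadjusted p under 0.05, beside 6.72% and 2.86% of all genes. Not every gene of the list forms NADPH itself, so these are not counts of NADPH-forming enzymes. The median of the 13 was −0.001 on the log2 scale, or −0.13 in relative terms. None passed after adjustment, where the smallest adjusted p of any gene in the table was 0.518.

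Lipid and sterol synthesis uses NADPH, though not every gene listed for it here is itself a user of NADPH. Among the 14 genes of that list, 0 were higher and 3 lower at an unadjusted p under 0.05. The shares of all genes were 6.72% higher and 2.86% lower, and none of the 14 passed after adjustment. Fasn, the fatty acid synthase, had 579.2, 506.5 and 279.8 FPKM in the NC libraries and 124.3, 56.9 and 71.1 FPKM in those labelled SFRP2-siRNA. Scd1, the stearoyl-CoA desaturase, had 6830, 4659 and 2980 FPKM in the NC libraries and 2488, 1009 and 607.1 FPKM in those labelled SFRP2-siRNA. Both had groups that did not overlap, with log2 differences of −2.44 (SE 0.39) for Fasn and −1.99 (SE 0.59) for Scd1, and Scd2 had means of 69.6 ± 12.5 and 47.1 ± 11.3 FPKM (SD, n = 3 each). The median of the 14 was −0.11 on the log2 scale, or −0.24 in relative terms and −0.05 without SFRP2-siRNA 3, so the large differences of Fasn and Scd1 were not shared by most of the list.

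Oxidant production is a further use of NADPH. Of 10 genes of NADPH oxidase and nitric oxide synthase tested, 4 were higher and 0 lower at an unadjusted p under 0.05. The shares of all genes were 6.72% higher and 2.86% lower, and none of the 10 passed after adjustment. The differences were above 0 for 8 and below 0 for 2 of the 10, with a median of 0.73 on the log2 scale, or 0.60 in relative terms, where all genes tested have 0.125 and 0. Without SFRP2-siRNA 1 the relative median was 0.39. The summed levels of the list overlapped, at 84.0 to 143 FPKM in the NC libraries and 138 to 232 FPKM in the other group. Nos2, the inducible nitric oxide synthase, had 2.14, 3.50 and 1.72 FPKM in the NC libraries and 4.84, 6.15 and 5.77 FPKM in those labelled SFRP2-siRNA, with no overlap. Cyba and Ncf1, subunits of the phagocyte oxidase, had means of 39.8 ± 9.25 and 12.3 ± 4.26 FPKM in the NC libraries and 70.0 ± 19.7 and 20.9 ± 3.79 FPKM in the other group, and Cybb, its catalytic subunit, had 6.34 ± 3.15 and 10.5 ± 2.06 FPKM (SD, n = 3 each). The summed macrophage markers moved with this list, 1090 to 1750 FPKM in the NC libraries and 1950 to 2620 FPKM in those labelled SFRP2-siRNA, and their part in it was not tested.

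In redox defence, 0 of 13 genes were higher and 1 lower at an unadjusted p under 0.05, beside 6.72% and 2.86% of all genes. The median of the 13 was 0.07 on the log2 scale, or −0.06 in relative terms and 0.09 without SFRP2-siRNA 3. Gsr, the glutathione reductase, had means of 21.5 ± 3.39 and 33.7 ± 10.7 FPKM (SD, n = 3 each) and Nqo1, a quinone reductase, had 5.86 ± 0.863 and 8.16 ± 2.02 FPKM. Txnrd2, the mitochondrial thioredoxin reductase, had 5.52 ± 1.47 and 3.20 ± 0.853 FPKM. None passed after adjustment.

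At the branch point with glycolysis, 2 of 17 genes were higher and 3 lower at an unadjusted p under 0.05. The shares of all genes were 6.72% higher and 2.86% lower. The median of the 17 was −0.07 on the log2 scale, or −0.20 in relative terms, and none passed after adjustment. The 2 higher genes were Slc2a3 and Hk3, and the groups overlapped for both. Slc2a3 had 5.231, 4.301 and 3.609 FPKM in the NC libraries and 11.32, 19.65 and 4.535 FPKM in those labelled SFRP2-siRNA. Hk3 had 5.639, 9.773 and 6.792 FPKM in the NC libraries and 22.2, 13.54 and 9.321 FPKM in those labelled SFRP2-siRNA. Slc2a4, the insulin-responsive glucose transporter, had 59.0, 43.9 and 39.6 FPKM in the NC libraries and 21.0, 22.2 and 28.7 FPKM in those labelled SFRP2-siRNA, with no overlap. Hk2, a hexokinase that makes glucose 6-phosphate, had means of 32.1 ± 5.34 and 20.5 ± 1.06 FPKM (SD, n = 3 each), and Pfkl, the liver-type phosphofructokinase, had 36.3 ± 8.07 and 19.1 ± 6.67 FPKM (SD, n = 3 each). Hk1 had 9.77 ± 0.740 and 11.0 ± 1.81 FPKM and Gpi1, the isomerase that competes with G6pdx for its substrate, had 93.1 ± 18.2 and 74.2 ± 5.35 FPKM. None of the 5 genes tested as partners of H6pd in the endoplasmic reticulum passed after adjustment. Their median was −0.04 on the log2 scale, or −0.16 in relative terms. At an unadjusted p under 0.05, beside 6.72% and 2.86% of all genes, 0 were higher and 1 gene was lower. That gene was Hsd11b1, the glucocorticoid-activating enzyme, with 27.0, 18.4 and 17.3 FPKM in the NC libraries and 19.1, 9.12 and 7.74 FPKM in those labelled SFRP2-siRNA, whereas Slc37a4, the glucose 6-phosphate transporter, had 6.88 ± 0.368 and 6.37 ± 1.67 FPKM (SD, n = 3 each).

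**Figure D5:**
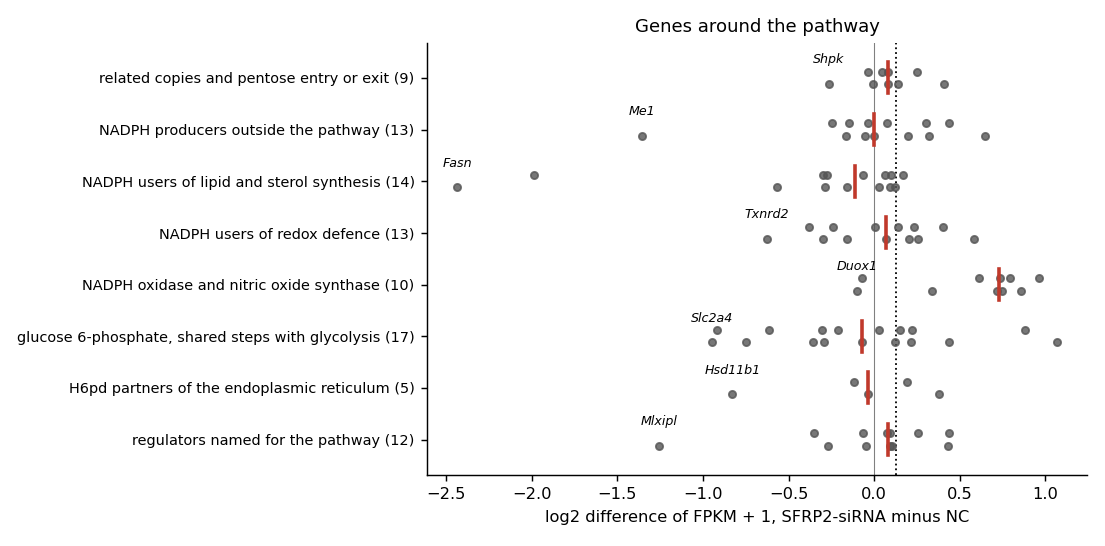
Log2 difference of FPKM + 1, SFRP2-siRNA minus NC (horizontal axis), for each gene tested in 8 lists around the pathway, with the number tested in brackets. Points are genes, red bars list medians, the dotted line the median of all genes tested (0.125), and the gene with the lowest value of each list is named. Fasn is lowest of all, and the NADPH oxidase list has its median at 0.73.

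Markers of the cell types that a wound can hold were summed in each library. Sebaceous gland markers summed to 799 to 966 FPKM in the NC libraries and 373 to 519 FPKM in those labelled SFRP2-siRNA, but 6 of the 10 genes had differences above 0, and without Fasn, which is also in the lipid synthesis list, the ranges of 318 to 519 and 301 to 395 FPKM overlapped. Of all 16005 genes tested, 11491 had differences above 0. Adipocyte markers summed to 2720 to 3550 and 1300 to 3370 FPKM, ranges that overlapped, with 13 of 14 genes below 0. Their relative median was −0.42, and −0.72 to −0.20 when 1 library was left out. Fibroblast markers summed to 1450 to 2830 and 3060 to 3310 FPKM, with 12 of 12 genes above 0, macrophage markers had 13 of 13 above 0 and skeletal muscle markers had 11 of 11 above 0. The ranges also overlapped for hair follicle (2460 to 4710 and 26.8 to 5020 FPKM), keratinocyte (4040 to 6810 and 3710 to 7030) and neutrophil markers (1170 to 1820 and 1020 to 5580). So did those for skeletal muscle (3560 to 6940 and 4730 to 13100), endothelial (90.3 to 132 and 88.4 to 157) and erythroid markers (1430 to 2380 and 2120 to 3390). No marker was at 0 in every library, and the part of any of these lists in the values of the 8 genes was not tested.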

How the data were processed

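The authors sequenced mRNA of wound tissues and deposited FPKM values for 33184 Ensembl gene IDs, of which 32582 matched a symbol. Per the labels, HISAT2, featureCounts and Subread were used, and the genome build and annotation were not given in the sources used here. For their tests the authors used DESeq2. Dividing out GENCODE vM21 exon lengths gave whole reads (within 0.05) in all 6 libraries for 98.3% of the 32582 genes with a length. The main test was limma 3.58.1 (lmFit, eBayes with trend) in R 4.3.3 on log2(FPKM + 1), 3 against 3 libraries, two-sided, and p-values were adjusted by Benjamini-Hochberg over the genes whose mean reached 0.5 FPKM. It was tested on simulated data. Fold changes on this scale understate those of low genes. A relative difference is the fitted one minus the median of all genes tested. The members and all gene lists were chosen with earlier results of these data known. The text names the 8 members, Sfrp2, and the 5 genes most correlated with Tkt and with G6pdx. In each list other than cell type markers it names up to 3 genes with the smallest p and neighbours of the pathway. Slc2a3 and Hk3 were added as the 2 genes of the branch point list higher at an unadjusted p under 0.05. Alternatives were another pseudocount (0.1), no filter, a filter at 2 FPKM, 3 scalings, no trend, a replicate block, leaving out each library and, added after seeing the data, limma voom on the recovered reads, which called 0 genes.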

Additional observations from a re-analysis of the deposited data

How the results depend on the processing

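Over the 15 alternatives 0 genes passed at an adjusted p under 0.05 with an absolute log2 difference above 1, and the smallest adjusted p of any was 0.157, without SFRP2-siRNA 1. At an unadjusted p under 0.05, 1533 genes passed in limma's test as reported and 1491 with voom. Genes higher at an unadjusted p under 0.05 numbered 1075, but 438 under median-of-ratios and 474 under quantile scaling, and 460 to 1566 when 1 library was left out. Genes lower numbered 458, but 699 with no filter, 747 under median-of-ratios, 689 under quantile scaling and 302 to 583 when 1 library was left out. Genes higher without overlap numbered 2226, but 886, 980 and 2517 to 4645 (without NC 3) under median-of-ratios, quantile and left-out libraries. Genes lower without overlap numbered 628, but 1027 with no filter, 1227, 1020 and 884 to 1275 (without SFRP2-siRNA 1), where fewer libraries make overlap rarer by construction. The cause of the other shifts was not tested. The relative difference of the non-oxidative branch was −0.72, and −0.84 to −0.58 when 1 library was left out, and that of the oxidative branch was −0.41, and −0.52 to −0.28. Of 120 refits of single members, 118 moved by less than the spread between libraries. The 2 that moved by more were G6pdx without NC 1 (−0.42 against −0.58) and Rpe with no filter (−0.18 against −0.28). The sign changed for H6pd (without SFRP2-siRNA 3) and Rpia (no filter, 0.05). With the replicate number as a block, 0 genes passed after adjustment and 1929 did at an unadjusted p under 0.05. After the mean of each group was removed from every gene, libraries with the same number correlated at −0.05, −0.15 and 0.38. Libraries with different numbers were not compared in this way, so whether the numbers pair the libraries was not tested. The fewest reads behind a member were 826 for Rpia, and 3 libraries a group limit the precision.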

Other observations

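Among 12 regulators named for the pathway, 0 were higher and 2 lower at an unadjusted p under 0.05 in limma's test. The shares of all genes were 6.72% higher and 2.86% lower, and none of the 12 passed after adjustment. Their median was 0.08 on the log2 scale, or −0.04 in relative terms and 0.06 with no filter on low values. Mlxipl, which encodes the glucose-responsive factor ChREBP, had 31.1, 25.9 and 16.5 FPKM in the NC libraries and 12.01, 7.56 and 8.92 FPKM in those labelled SFRP2-siRNA. Every NC value lay above every value of the other group, and the log2 difference was −1.26. Srebf1, the sterol and fatty acid regulator, had 32.6, 40.0 and 33.4 FPKM in the NC libraries and 29.8, 26.1 and 26.3 FPKM in those labelled SFRP2-siRNA, without overlap. Sirt5, a mitochondrial deacylase, had means of 1.28 ± 0.365 and 0.876 ± 0.146 FPKM (SD, n = 3 each).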
